A study of Danio rerio with 6 samples.

Results

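The genes described here are 10 members of the Nrf2 and glutathione antioxidant system, chosen by gene symbol from the 15419 gene symbols of the deposited counts, and all 10 were present. They are *nfe2l2a*, *keap1a*, *keap1b*, *sqstm1*, *gclc*, *gclm*, *gsr*, *gstp1*, *prdx1* and *hmox1a*. Bulk RNA-seq was performed on guts dissected from zebrafish larvae at 5 dpf (days post-fertilization), with 10 to 15 guts pooled in each library. One group held 3 wild-type libraries (WT GF) and the other 3 libraries of the *il26* knockout (il26KO in the labels, *il26*-/- GF here). All larvae of both groups were reared germ-free (GF), from bleached eggs in sterile medium with ampicillin, kanamycin, ceftazidime and chloramphenicol. The wild type is the AB line, the *il26* coding sequence was targeted with Cas9 and a pair of guide RNAs, and the larvae came from WT and *il26*-/- adults that were clutchmates kept in separate tanks. The comparison asks whether loss of *il26*, which encodes the secreted cytokine IL-26, goes with a change of these transcripts in guts that hold no microbiota. Whole guts were sequenced, so fewer cells of a type and less RNA per cell cannot be told apart.

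Nrf2, encoded by *nfe2l2a* in zebrafish, which also carry the paralog *nfe2l2b*, is a transcription factor that activates genes of antioxidant defence and detoxification. In unstressed cells it is bound by Keap1, an adaptor that hands it to a Cul3 ubiquitin ligase for degradation, and zebrafish carry the Keap1 paralogs *keap1a* and *keap1b*. Oxidants and electrophiles modify cysteines of Keap1 and so release Nrf2, which means that much of this control acts on protein rather than on transcripts. Among the best known target genes are those for glutathione synthesis, glutathione transferases, peroxiredoxins, haem oxygenase and quinone reductase. The intestinal epithelium meets electrophiles and oxidants from food, bile and, outside germ-free conditions, microbes.

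None of the 10 genes differed between the genotypes beyond the spread of the replicates. By edgeR's quasi-likelihood test, 0 of the 10 passed an adjusted p-value of 0.05, where 0.00904% of the 11062 genes tested did. An unadjusted p-value of 0.05 was likewise passed by 0 of the 10, where 5.32% of all genes passed it. DESeq2 and limma-voom also gave 0 of the 10 at either threshold. For every one of the 10 genes the values of the groups overlapped, where 9.64% of all genes tested had groups that did not (4.81% with *il26*-/- GF higher and 4.83% with it lower). The log2 fold change was above 0 for 6 of the 10 genes and below 0 for 4, against 49.6% above 0 among all genes tested, with a median of 0.041 against -0.0011 for all genes. It ranged from -0.44 for *hmox1a* to 0.32 for *gsr*. For 8 of the 10 genes the 95% confidence interval lay between -1 and 1 on the log2 scale, so that a change of 2-fold or more lay outside the interval, and 83.8% of all genes tested had such an interval.

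The libraries held 7528412 to 38143258 counts, with *il26*-/- GF replicate 1 the shallowest and *il26*-/- GF replicate 2 the deepest. Every one of the 10 genes had at least 208 counts in each library, far above the level that 3 counts can show, which was between 0.0787 and 0.398 CPM (counts per 1000000 counts of the library, counting error only). That level was taken from the total counts alone, whereas the CPM of genes and markers were also scaled between libraries by TMM. No library held a read of *il26* (0 counts in each of the 6), so its level could not check the genotypes. Of 13 enterocyte markers, all were tested and their summed level was between 32735 and 40699 CPM, as the label of gut requires, although *fabp2*, a defining marker, had only 6 to 19 counts a library. Exocrine pancreas (44169 to 72129 CPM) and hepatocyte markers (6020 to 17887 CPM) were also present. Summed skeletal muscle markers were at 711 to 1266 CPM in WT GF and 1178 to 1899 CPM in *il26*-/- GF, with 7 of the 10 tested higher at an unadjusted p-value under 0.05. Neuron, erythrocyte, and macrophage and neutrophil markers summed to at most 163, 109 and 58.4 CPM. Neuron markers were at 143 to 163 CPM in WT GF and 129 to 149 CPM in *il26*-/- GF, with 2 of 12 tested lower at that threshold. The same held for 1 of 13 enterocyte markers, 1 of 7 macrophage and neutrophil markers and 1 of 7 erythrocyte markers, of which 1 other was higher. Several genes that most cells use were listed at or near 0 (*gpx1a* at 0 counts in all libraries, *idh1* at 0 or 1), so a gene listed at 0 is not read here as absent.

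**Figure D1:**
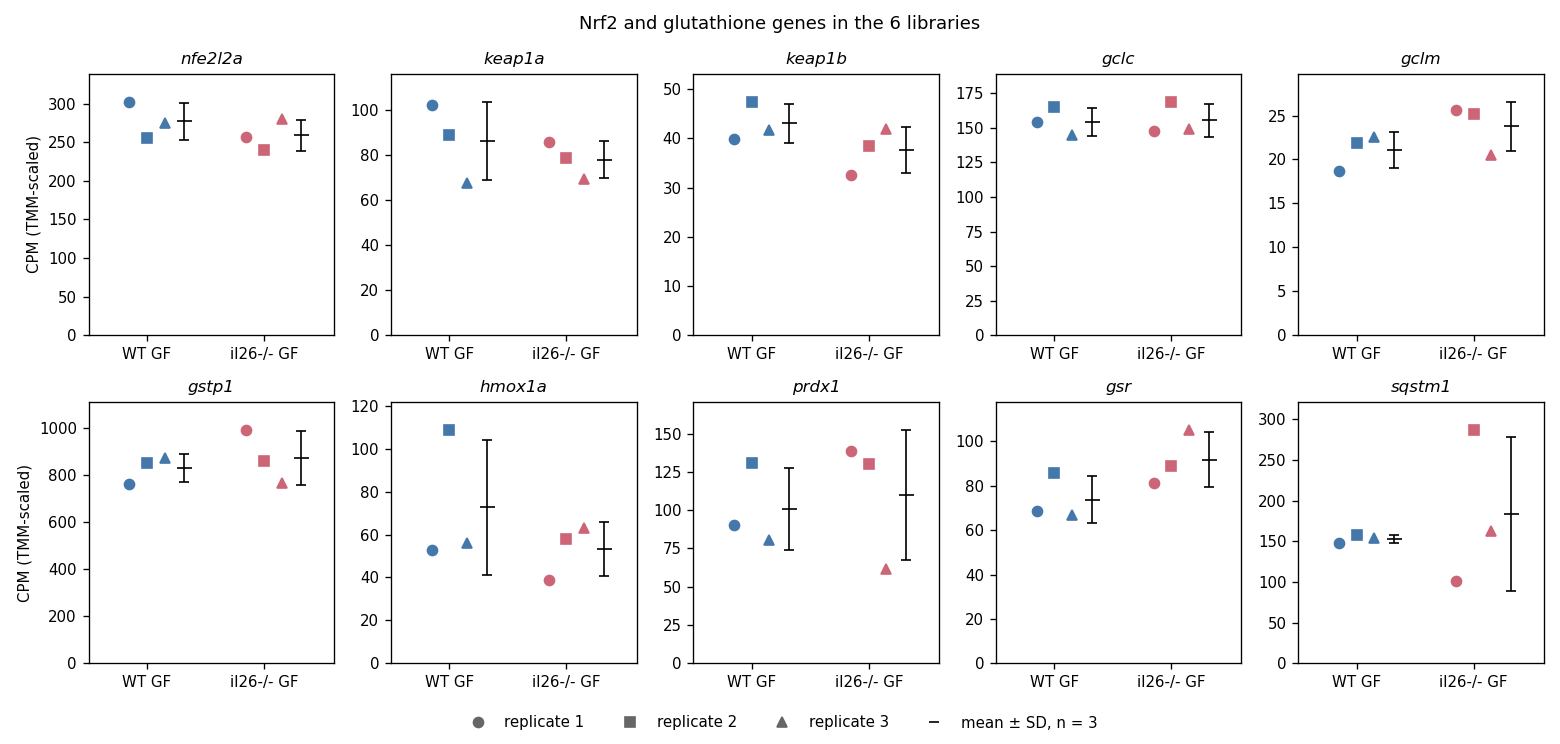
Level of each of the 10 genes in CPM (linear axis from 0) in the 3 WT GF and 3 *il26*-/- GF libraries. Symbols mark the replicate number and black bars the mean ± SD (n = 3). The groups overlap in every panel, and the widest scatter is that of *sqstm1* in *il26*-/- GF (101 to 287 CPM) and of *hmox1a* in WT GF (52.9 to 109 CPM).

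The transcript of the factor itself was nearly level across the 6 libraries. *nfe2l2a* was at 303, 255 and 275 CPM in WT GF replicates 1, 2 and 3 and at 257, 240 and 280 CPM in *il26*-/- GF. The highest library was thus a WT GF one and the lowest an *il26*-/- GF one, only 1.26-fold apart, and the groups overlapped. The means were 277 ± 24.0 CPM (SD, n = 3) in WT GF and 259 ± 19.96 CPM (SD, n = 3) in *il26*-/- GF. This gave a log2 fold change of -0.098 (standard error 0.11, 95% confidence interval -0.35 to 0.15, adjusted p = 1.00 in edgeR).

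The Keap1 paralogs, the inhibitors of Nrf2, also overlapped. *keap1a* was at 102, 89.0 and 67.7 CPM in WT GF and at 86.0, 78.9 and 69.6 CPM in *il26*-/- GF, so that the *il26*-/- GF libraries lay inside the WT GF range. *keap1b* was at 39.9, 47.5 and 41.8 CPM in WT GF and at 32.6, 38.5 and 41.9 CPM in *il26*-/- GF. The *il26*-/- GF libraries included the 2 lowest values of *keap1b*, whereas replicate 3 of both groups was at the same level. Log2 fold changes were -0.14 (95% confidence interval -0.52 to 0.24) for *keap1a* and -0.19 (95% confidence interval -0.47 to 0.090) for *keap1b*. Without WT GF replicate 1, that of *keap1a* was 0.0018. Both paralogs are in the same family, and reads could have been shared between them.

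Ratios within a library do not depend on its depth. The count of *keap1a* over that of *keap1b* came to 2.57, 1.87 and 1.62 for WT GF replicates 1, 2 and 3, against 2.63, 2.05 and 1.66 for *il26*-/- GF. The ratio thus spanned the same range in both genotypes. On the log2 scale it was 0.99 ± 0.34 (SD, n = 3) in WT GF and 1.06 ± 0.33 (SD, n = 3) in *il26*-/- GF, a difference of 0.068 (exact permutation test, two-sided, p = 0.7, adjusted p = 0.7 over 3 ratios, where 0.1 is the smallest p that 3 libraries against 3 allow). The count of *nfe2l2a* over the sum of both Keap1 genes came to 2.13, 1.87 and 2.51 for WT GF against 2.17, 2.05 and 2.51 for *il26*-/- GF, again with nearly the same range. Its log2 difference was 0.054 (same exact permutation test, p = 0.7, adjusted p = 0.7). Leaving out 1 library turned the sign of both differences, with log2 differences of *keap1a* to *keap1b* of -0.078 without WT GF replicate 3 and -0.10 without *il26*-/- GF replicate 1. For *nfe2l2a* over the Keap1 genes they were -0.048 without WT GF replicate 2 and -0.030 without *il26*-/- GF replicate 3.

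*sqstm1* encodes p62, an autophagy receptor that also binds Keap1 and is itself a Nrf2 target. It was the steadiest of the 10 genes in WT GF and the most scattered in *il26*-/- GF. WT GF had 147, 158 and 154 CPM, and *il26*-/- GF had 101, 287 and 162 CPM. The mutant group therefore held both the lowest and the highest library, 2.85-fold apart, around a narrow WT GF group. The coefficient of variation was 3.47% in WT GF and 51.7% in *il26*-/- GF, a difference in spread that was not tested. Its log2 fold change was 0.26 (standard error 0.33, 95% confidence interval -0.50 to 1.03, adjusted p = 1.00 in edgeR) and was -0.22 without *il26*-/- GF replicate 2. That library was also the highest of the 6 in summed skeletal muscle markers, at 1899 CPM, and the deepest. The lowest library for *sqstm1*, *il26*-/- GF replicate 1, was the shallowest, but its muscle markers, at 1276 CPM, were above those of every WT GF library. The part of muscle content or of depth in the level of *sqstm1* was not tested.

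Glutathione is made in a first, rate-limiting step by glutamate-cysteine ligase, of which *gclc* encodes the catalytic and *gclm* the modifier subunit. *gclc* had the narrowest range of the 10 genes, with 154, 165 and 145 CPM in WT GF and 148, 169 and 149 CPM in *il26*-/- GF. The highest of these values was 1.17 times the lowest. For *gclc* the log2 fold change was 0.0094 (standard error 0.10, 95% confidence interval -0.22 to 0.24), its sign being turned without WT GF replicate 3 (-0.037) or *il26*-/- GF replicate 2 (-0.056). *gclm* was at 18.7, 21.8 and 22.6 CPM in WT GF and at 25.6, 25.2 and 20.6 CPM in *il26*-/- GF. In *il26*-/- GF 2 libraries lay above all of WT GF and the third within it. For *gclm* the log2 fold change was 0.17 (standard error 0.12, 95% confidence interval -0.12 to 0.46).

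The balance of the 2 subunits was compared within libraries. Counts of *gclc* over those of *gclm* gave 8.22, 7.54 and 6.39 for WT GF against 5.77, 6.70 and 7.25 for *il26*-/- GF, so that the groups overlapped. The log2 ratio was 2.88 ± 0.18 (SD, n = 3) in WT GF and 2.71 ± 0.17 (SD, n = 3) in *il26*-/- GF. The difference of -0.17 was within the spread of the libraries (exact permutation test, two-sided, p = 0.4, adjusted p = 0.7). It was -0.085 without WT GF replicate 1, -0.076 without *il26*-/- GF replicate 1 and -0.27 without WT GF replicate 3.

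*gsr* encodes glutathione reductase, which returns oxidized glutathione to its reduced form with NADPH. It had the smallest p-value of the 10 genes. Its level was 68.5, 85.7 and 66.9 CPM in WT GF and 81.3, 88.9 and 105 CPM in *il26*-/- GF. All *il26*-/- GF libraries were above WT GF replicates 1 and 3, and WT GF replicate 2 lay among them. The means were 73.7 ± 10.4 CPM (SD, n = 3) in WT GF and 91.8 ± 12.2 CPM (SD, n = 3) in *il26*-/- GF, or 1.25-fold by the fit. From the fit, the log2 fold change was 0.32 (standard error 0.14, 95% confidence interval -0.0096 to 0.64) with an unadjusted p-value of 0.0555 and an adjusted p-value of 0.953 in edgeR's quasi-likelihood test. The unadjusted p-value was under 0.05 in 4 of 13 alternative fits, at 0.00923 with libraries scaled by total counts only, 0.04998 with the replicate number as a block, 0.0154 without WT GF replicate 2 and 0.0391 without *il26*-/- GF replicate 1. Its adjusted p-value was at least 0.604 in all 13.

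**Figure D2:**
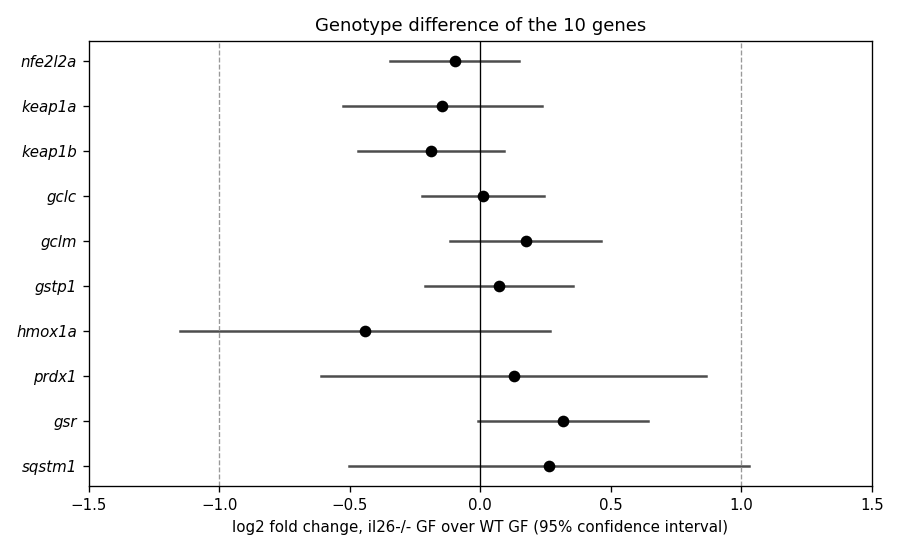
Log2 fold change of *il26*-/- GF over WT GF for the 10 genes from edgeR, with 95% confidence intervals as horizontal lines; dashed lines mark a 2-fold change in either direction. Every interval includes 0, that of *gsr* just so (-0.0096 to 0.64), and those of *hmox1a* and *sqstm1* reach beyond a dashed line.

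*gstp1* encodes a pi-class glutathione transferase, which joins glutathione to electrophiles. It was at 763, 851 and 873 CPM in WT GF and at 992, 860 and 765 CPM in *il26*-/- GF, where replicate 1 was the highest and replicate 3 as low as the lowest WT GF library. The log2 fold change was 0.073 (standard error 0.12, 95% confidence interval -0.21 to 0.36) and -0.029 without *il26*-/- GF replicate 1. Its paralog *gstp2*, its direct neighbour in the GRCz12tu assembly, was at 89.4, 123 and 41.6 CPM in WT GF and at 218, 195 and 64.5 CPM in *il26*-/- GF. The levels of *gstp2* differed more between libraries of one group than those of *gstp1*, and replicate 3 was the lowest of each group. The log2 fold change of *gstp2*, 0.91, had a standard error of 0.51 (adjusted p = 1.00 in edgeR), and reads could have been shared between the paralogs.

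*prdx1* encodes a cytosolic peroxiredoxin, an enzyme that removes hydrogen peroxide with electrons from thioredoxin. Its level was 90.6, 131 and 80.4 CPM in WT GF and 139, 130 and 61.5 CPM in *il26*-/- GF. The *il26*-/- GF group held both the highest and the lowest library, 2.26-fold apart. As for *gstp2*, the 3 highest libraries of *prdx1* were *il26*-/- GF replicates 1 and 2 and WT GF replicate 2. For *prdx1* the log2 fold change was 0.13 (standard error 0.32, 95% confidence interval -0.61 to 0.87), with values of -0.012, -0.068 and -0.013 without WT GF replicate 3, *il26*-/- GF replicate 1 and *il26*-/- GF replicate 2.

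*hmox1a* encodes an inducible haem oxygenase, which breaks haem down to biliverdin, carbon monoxide and iron. Its level was 52.9, 109 and 56.2 CPM in WT GF and 39.0, 57.9 and 62.9 CPM in *il26*-/- GF. A single library, WT GF replicate 2, stood above the other 5, and the remaining WT GF values lay inside the *il26*-/- GF range. For *hmox1a* the log2 fold change was -0.44 (standard error 0.30, 95% confidence interval -1.15 to 0.27, adjusted p = 1.00 in edgeR). Without WT GF replicate 2 it was -0.023. That library was also the highest in summed hepatocyte markers, at 17887 CPM, and in summed exocrine pancreas markers, at 72129 CPM, and the part of either in the level of *hmox1a* was not tested. The lowest library for *hmox1a*, *il26*-/- GF replicate 1, was the lowest in pancreas markers (44169 CPM) but not in hepatocyte markers (9527 CPM). All 6 libraries stood in the same order for *hmox1a* and for the summed pancreas markers. That order was looked at after the values were seen and was not tested.

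**Figure D3:**
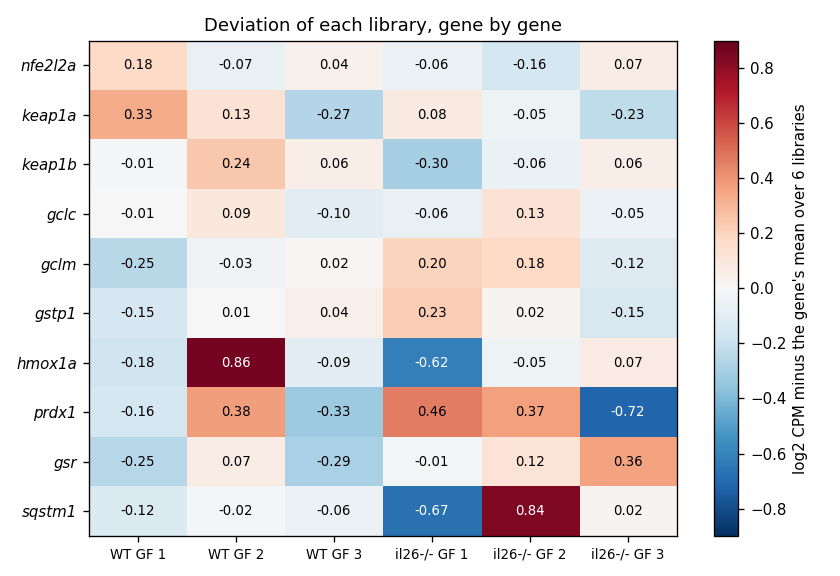
Log2 CPM of each gene in each library minus that gene's mean over the 6 libraries (colour, with the value printed; red above and blue below the mean). The largest deviations sit in single libraries of *hmox1a* (0.86 in WT GF replicate 2, -0.62 in *il26*-/- GF replicate 1), *sqstm1* (0.84 and -0.67 in *il26*-/- GF replicates 2 and 1) and *prdx1* (-0.72 in *il26*-/- GF replicate 3), and no column is of one colour.

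The 10 genes did not move as a block from library to library. Of the 6 libraries, 5 were the highest for at least 1 gene and 5 the lowest for at least 1 gene. *il26*-/- GF replicate 1 was the highest for 3 genes (*gclm*, *gstp1* and *prdx1*) and the lowest for 3 others (*keap1b*, *hmox1a* and *sqstm1*). WT GF replicate 2 was the lowest for none. Median deviations over the 10 genes were between -0.14 and 0.080 on the log2 scale in every library.

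How far a gene can be followed with 3 libraries a group depends on its spread, given here as edgeR's biological coefficient of variation (the relative spread between replicates beyond counting noise). Its median for the 10 genes, 0.147, equalled that for all genes tested (0.147). The 10 genes fell into a narrow and a wide set. *keap1b*, *gclm*, *gclc*, *nfe2l2a*, *gstp1*, *gsr* and *keap1a* had coefficients of 0.130 to 0.168. *hmox1a*, *prdx1* and *sqstm1* had 0.271, 0.284 and 0.294, at percentiles 89.8, 90.9 and 91.7 of all genes tested.

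**Figure D4:**
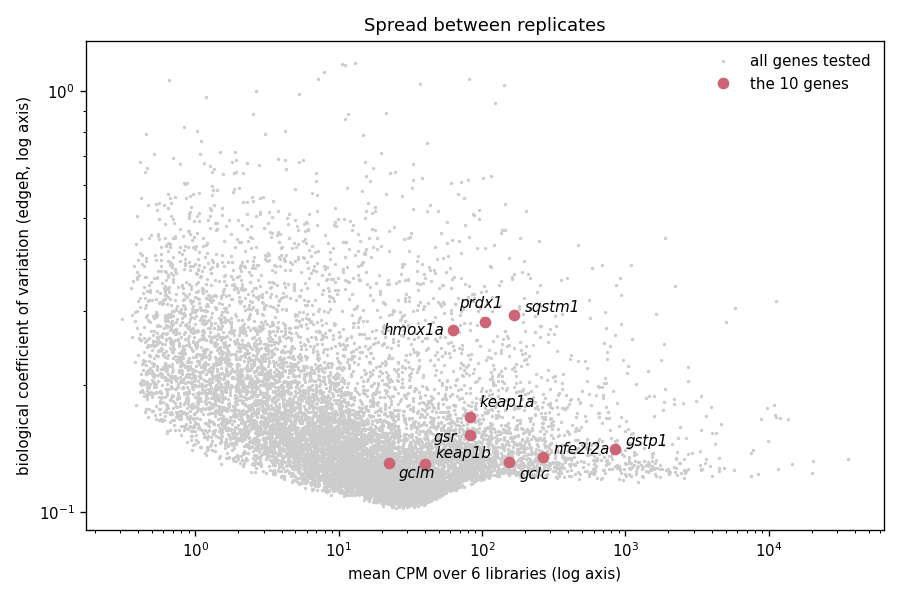
Biological coefficient of variation from edgeR against mean CPM over the 6 libraries (both axes logarithmic) for all 11062 genes tested (grey) and the 10 genes (red). *hmox1a*, *prdx1* and *sqstm1* lie at 0.271 to 0.294, above the other members at 0.130 to 0.168.

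Beyond the 10 genes, 9 lists of the wider pathway were read from the same fit. They held 167 symbols, of which 138 were in the counts and 118 passed the filter on low counts. At an unadjusted p-value under 0.05, 3 of these 118 had higher and 9 had lower values in *il26*-/- GF. That is 10.2%, against 5.32% of all genes tested (3.06% higher and 2.27% lower). The lists were chosen with earlier results of these data known, so this share is not a test of the pathway. None had an adjusted p-value under 0.05 in edgeR's quasi-likelihood test or in limma-voom, and 2 did in DESeq2. Of all 11062 genes tested, DESeq2 called 52 at that threshold and edgeR 1. Of the 12 genes, 4 belong to one row of ferritin genes, so they are not 12 separate observations. Without WT GF replicate 1 the count was 7, with 513 of 11206 among all genes tested. Without WT GF replicate 3 it was 17, with 1133 of 11151 among all genes. The groups did not overlap for 11 of the 118, which is near the 9.64% of all genes tested, so that a lack of overlap in a gene named below is not particular to these lists. The part of the skeletal muscle, neuron and other markers given above in the list values was not tested. The median log2 fold change of the 118 genes was -0.033.

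The regulators around Nrf2 showed no gene past either threshold. Of 13 tested, 0 passed an unadjusted p-value of 0.05, and for all 13 the 95% confidence interval lay within a 2-fold change. Of all genes tested, 5.32% passed that p-value and 83.8% had such an interval. Their log2 fold changes ranged from -0.13 for *cul3a*, a scaffold of the ligase that Keap1 serves, to 0.21 for *mafk*, a small Maf partner of Nrf2. *cul3a*, which also had the most counts of this list, was at 60.2, 67.4 and 60.6 CPM in WT GF and at 57.8, 60.2 and 54.0 CPM in *il26*-/- GF.

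Genes around glutathione itself were likewise without a call, where 5.32% of all genes tested passed an unadjusted p-value of 0.05. Of 10 tested genes for glutathione synthesis and breakdown, 0 passed an unadjusted p-value of 0.05, with log2 fold changes from -0.60 for *slc3a2b*, a heavy chain of amino acid transporters, to 0.29 for *chac2*, a glutathione-degrading enzyme. *slc3a2b* was at 30.1, 75.8 and 24.0 CPM in WT GF, where replicate 2 stood apart as it did for *hmox1a*, and at 19.7, 43.4 and 21.1 CPM in *il26*-/- GF. The gene with the most counts of this list, the aminopeptidase gene *anpepb*, had a log2 fold change of -0.039. Of 5 glutathione peroxidases tested, which reduce peroxides with glutathione, 0 passed it, with -0.21 for *gpx4a* and 0.36 for *gpx3*. Of 16 glutathione transferases and related genes tested, 0 did, from -1.07 (standard error 0.49) for *gstk4*, at only 0.440 to 2.41 CPM, to 0.91 for *gstp2*. *gstr*, with the most counts among them, had a log2 fold change of -0.079. The list of superoxide dismutases and catalase (5 tested, 0 past that threshold) spanned -0.068 for *sod3a* to 0.25 for *ccs*. *ccs* encodes a copper chaperone for superoxide dismutase and not one of these enzymes, and *cat*, the catalase gene, had 0.057.

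Among 23 peroxiredoxin, thioredoxin, glutaredoxin and related genes, 2 were higher and 1 lower at an unadjusted p-value under 0.05, against 3.06% and 2.27% of all genes tested. *txnipb*, related to mammalian TXNIP, a thioredoxin-binding protein, was at 4.05, 2.68 and 3.196 CPM in WT GF and at 5.29, 7.02 and 5.91 CPM in *il26*-/- GF. All mutant libraries were above all WT GF libraries (log2 fold change 0.90, standard error 0.20, adjusted p = 0.487 in edgeR). Its paralog *txnipa* had far more counts in every library. *txnipa* was at 302, 317 and 230 CPM in WT GF and at 223, 292 and 271 CPM in *il26*-/- GF. The groups overlapped for *txnipa* (log2 fold change -0.11, standard error 0.16). The higher values of *txnipb*, which did not pass the adjusted threshold, were thus not seen for *txnipa*. Sestrins are stress-responsive proteins, and 2 of their genes pointed in opposite ways. *sesn2* was at 3.21 to 3.70 CPM in WT GF and 4.39 to 4.59 CPM in *il26*-/- GF (log2 fold change 0.41, adjusted p = 0.862 in edgeR). *sesn1* was at 391 to 499 CPM in WT GF and 297 to 394 CPM in *il26*-/- GF (log2 fold change -0.38, adjusted p = 0.869 in edgeR), and its groups overlapped. The unadjusted p-value was under 0.05 in 7 of 13 alternative fits for *sesn2* and in 9 of 13 for *sesn1*. *prdx2*, the gene with the most counts of this list, had a log2 fold change of -0.040.

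The quinone reductase gene *nqo1*, in mammals one of the most widely used Nrf2 target genes, was lower in every *il26*-/- GF library than in every WT GF library, although the 10 genes above were not. It was at 248, 369 and 222 CPM in WT GF and at 180, 164 and 146 CPM in *il26*-/- GF. The means were 280 ± 78.4 CPM (SD, n = 3) and 163 ± 16.9 CPM (SD, n = 3). The log2 fold change was -0.78 (standard error 0.20, 95% confidence interval -1.23 to -0.32), with an unadjusted p-value of 0.00474 and an adjusted p-value of 0.550 in edgeR. Over 13 alternatives it was between -0.92 and -0.52, the latter without WT GF replicate 2, the highest library for *nqo1*. That library was also the highest in summed hepatocyte and exocrine pancreas markers, and their part in the level of *nqo1* was not tested. *nqo1* passed the adjustment in DESeq2 (adjusted p = 0.0383), which called 52 of all genes tested. Of the 14 genes for NADPH supply and quinone reduction that were tested, 1 other passed an unadjusted p-value of 0.05, as did 5.32% of all genes tested. That other gene was *idh2*, which encodes mitochondrial isocitrate dehydrogenase and had the most counts of the list. It was at 507 to 553 CPM in WT GF and 422 to 457 CPM in *il26*-/- GF (log2 fold change -0.25, adjusted p = 0.839 in edgeR). The unadjusted p-value of *idh2* was under 0.05 in 8 of 13 alternative fits. The most positive value of the list was 0.17 for *me2*.

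Of 14 genes tested on the haem breakdown and iron storage list, 5 were lower and 0 higher at an unadjusted p-value under 0.05. Of all genes tested, 2.27% were lower and 3.06% higher at that threshold. The 14 include *ftr82*, a gene of the finTRIM family and not of haem or iron (log2 fold change -0.031). Of the 5 genes, 4 were ferritin heavy-chain-like genes that stand in one row. *fthl27* was at 789, 817 and 620 CPM in WT GF and at 495, 579 and 554 CPM in *il26*-/- GF, without overlap (log2 fold change -0.45, standard error 0.13, adjusted p = 0.643 in edgeR). *fthl31* was at 50.0, 49.5 and 35.8 CPM in WT GF and at 21.0, 35.4 and 27.5 CPM in *il26*-/- GF, the nearest values of the groups being almost equal. *fthl28* and *fthl29* had log2 fold changes of -0.74 and -0.79 (adjusted p = 0.752 and 0.722 in edgeR) and did not overlap either. The fifth gene of the row in the GRCz12tu assembly, *fthl30*, overlapped between the groups (log2 fold change -0.40, unadjusted p-value 0.264 in edgeR). These genes belong to one family and may share reads. Their sum over *fthl27* to *fthl31* was 874, 894 and 680 CPM in WT GF and 529, 637 and 597 CPM in *il26*-/- GF. Most of that sum was *fthl27* in every library, so it largely repeats that gene. It does not depend on how reads were split among these genes, but reads dropped or counted outside the row would change it. That sum was chosen after the values were seen. Outside the row, the heavy-chain genes *fth1a* and *fth1b* had log2 fold changes of -0.014 and 0.36 and did not pass either threshold. The haem oxygenase gene *hmox2a*, a paralog of *hmox1a* of the constitutive type, was at 34.7 to 44.9 CPM in WT GF and 30.7 to 36.5 CPM in *il26*-/- GF (log2 fold change -0.32, adjusted p = 0.891 in edgeR). Its groups overlapped, and its unadjusted p-value was under 0.05 in only 6 of 13 alternative fits.

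**Figure D5:**
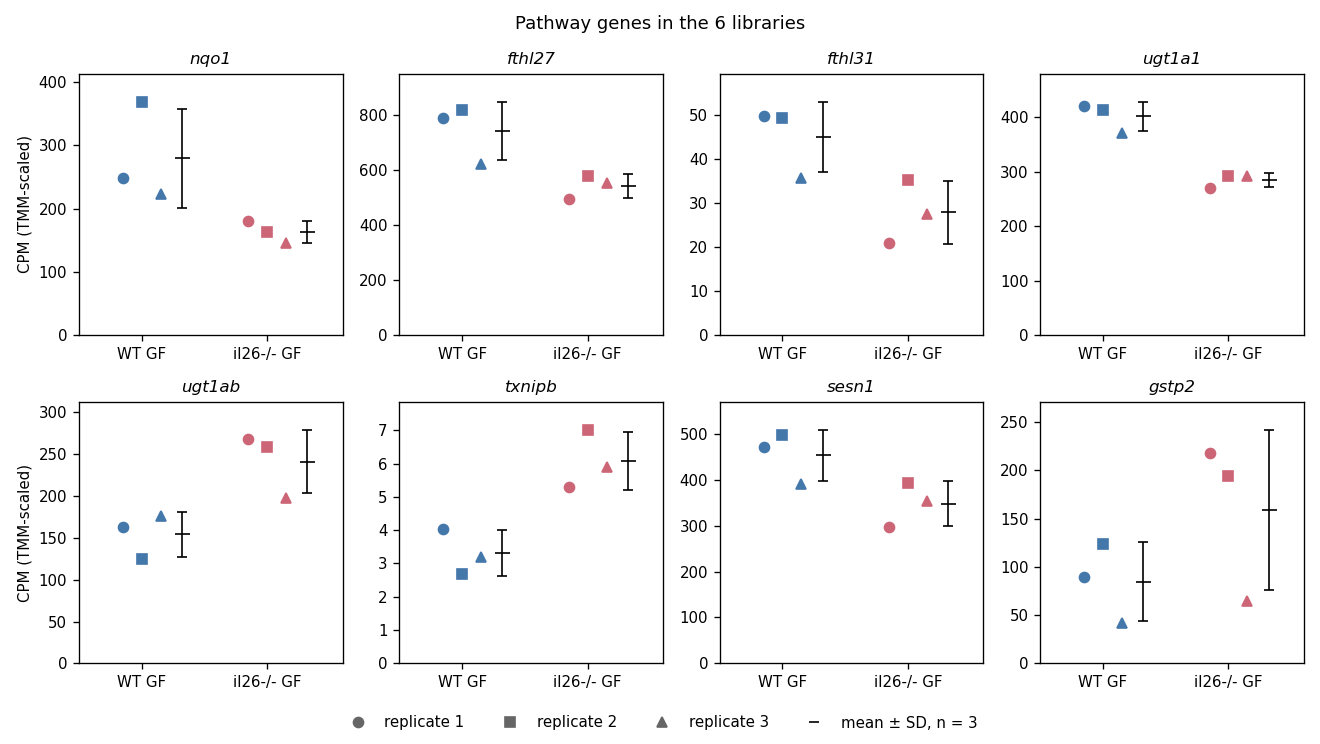
Level in CPM (linear axis from 0) of 8 pathway genes in the 6 libraries, with symbols for the replicate number and black bars for the mean ± SD (n = 3). *nqo1*, *fthl27*, *fthl31* and *ugt1a1* are lower, and *ugt1ab* and *txnipb* higher, in all *il26*-/- GF libraries than in all WT GF libraries, whereas *sesn1* and *gstp2* overlap.

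The remaining list of Nrf2 targets held a pair of opposite values. The glucuronosyltransferase gene *ugt1a1* was at 421, 413 and 372 CPM in WT GF and at 270, 293 and 292 CPM in *il26*-/- GF (log2 fold change -0.50, standard error 0.094, unadjusted p-value 0.000930, adjusted p-value 0.336 in edgeR and 0.0107 in DESeq2). *ugt1ab* was at 163, 124 and 176 CPM in WT GF and at 268, 258 and 198 CPM in *il26*-/- GF (log2 fold change 0.64, standard error 0.17, adjusted p = 0.552 in edgeR). Neither gene's groups overlapped. At an adjusted p-value under 0.05, DESeq2 called 52 of all genes tested and edgeR 1. The 2 genes overlap each other in the GRCz12tu assembly, so reads of one could be counted for the other. In order of start, 4 other protein-coding genes lie between them. Reads could be shared with those as well, and the sum that follows leaves them out. Their sum, looked at after the values were seen, was 584, 538 and 547 CPM in WT GF and 538, 551 and 490 CPM in *il26*-/- GF. The groups overlapped in the sum, while the share of *ugt1ab* in it was 23.2% to 32.1% in WT GF and 40.4% to 49.8% in *il26*-/- GF. Of the 18 genes tested on this list, the other 16 did not pass an unadjusted p-value of 0.05, among them *abcg2a*, a drug efflux transporter gene with the most counts of the list, at a log2 fold change of -0.23.

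The p-values do not show that the genotypes were alike. The bound farthest from 0 of the 95% confidence interval was 0.24 on the log2 scale for *gclc*, the narrowest, and -1.15 for *hmox1a*, the widest in that direction. In the GRCz12tu assembly, 0 of the 10 genes lie on the chromosome of *il26*.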

How the data were processed

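Guts of 5-dpf germ-free larvae were pooled by 10 to 15, and stranded mRNA libraries were sequenced from 3 WT GF and 3 *il26*-/- GF replicates, numbered as in the deposited titles. Per the labels, reads were checked with FastQC 0.11.8 and aligned to danRer11. The authors deposited raw read counts per gene symbol. Aligner, counting tool, annotation and strand setting are not given in the sources used here, so paralogs and overlapping genes may share reads. Columns were matched to samples by library name.

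Genes were kept by filterByExpr (11062 of 15419), libraries scaled by TMM, and *il26*-/- GF set against WT GF by the quasi-likelihood test of edgeR 4.0.16, with no block. Adjusted p-values follow Benjamini and Hochberg and take in every tested gene. limma 3.58.1 and DESeq2 1.42.0 served as alternatives in R 4.3.3. CPM are scaled by TMM, apart from the level that 3 counts can show. Each standard error is the absolute log2 fold change over the square root of F. Ratios within libraries, with 0.5 added to each count, were compared by exact permutation, adjusted over 3 ratios. Nothing says whether replicates came from separate clutches, so p-values measure the spread between these pools. The members and lists were chosen with earlier results of these data known. Named are the 10 genes and, of each list, genes with an unadjusted p-value under 0.05, the most abundant gene and both extremes of fold change. Some paralogs of these genes and *ftr82* are named as well. The tests were tested on simulated data. Neighbouring genes were read from a RefSeq table of GRCz12tu, not the authors' build. Alternatives were other scalings, filters and tests, the replicate block and each library left out.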

Additional observations from a re-analysis of the deposited data

How the results depend on the processing

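Of 13 alternative fits, 0 gave any of the 10 genes an adjusted p-value under 0.05. At an unadjusted p-value under 0.05 there was 1 of the 10, *gsr*, both with total counts only and under the replicate block, and 0 to 1 across the fits that left out a library. Over all genes, 1 had an adjusted p-value under 0.05, against 2 with total counts only, 4 with every gene that had at least 1 count, 15 with the replicate number as a block and 52 in DESeq2. Leaving out a library gave 0 to 3 such genes, and 441 to 1133 with an unadjusted p-value under 0.05. Total counts only moved the median log2 fold change of all genes by 0.084 and gave 442 higher and 108 lower genes at an unadjusted p-value under 0.05, against 338 and 251. Of the pathway genes, 7 to 17 had an unadjusted p-value under 0.05 when a library was left out.

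Leaving out a library gave log2 fold changes from -0.15 to -0.026 (without WT GF replicate 1) for *nfe2l2a*, from -0.26 to -0.10 (without *il26*-/- GF replicate 1) for *keap1b*, from 0.10 (without WT GF replicate 1) to 0.28 for *gclm*, from -0.62 to -0.023 for *hmox1a*, from 0.22 to 0.44 for *gsr*, from -0.29 to 0.0018 for *keap1a*, from -0.056 to 0.064 for *gclc*, from -0.029 to 0.17 for *gstp1*, from -0.068 to 0.42 for *prdx1* and from -0.22 to 0.56 for *sqstm1*, and log2 differences from -0.27 to -0.076 for *gclc* to *gclm*, from -0.10 to 0.25 for *keap1a* to *keap1b* and from -0.048 to 0.16 for *nfe2l2a* to the Keap1 genes. The cause was not tested.

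Same-numbered libraries deviated from their groups with correlations over genes of 0.18, 0.096 and 0.30, and 5 of 6 libraries correlated best with their own number, a hint of a shared structure from the data. Because 1 of the 3 correlations was not over 0.1 and no label says what a number marks, the numbers were not taken as pairs. With the replicate number as a block in the ratios, an exact sign-flip permutation gave p = 0.75 for *gclc* to *gclm* and p = 0.25, the smallest possible, for the other 2 ratios, both of which were higher in *il26*-/- GF in 3 of 3 same-numbered pairs. The differences themselves were those without the block (-0.17, 0.068 and 0.054 on the log2 scale).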
